A study of Mus musculus with 78 samples.

Results

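The skeletal muscle fibre genes described here are 48 genes that build, trigger and feed the contractile machinery of striated muscle, or that switch it on during muscle formation. They were chosen by symbol: a probe set was a member where the platform annotation gave it a listed gene as its single symbol, and the brightest probe set stood for each gene. All 48 genes had a probe set and all 48 passed the filter on low signals, among 14718 genes tested in the series. A gene passed with 6 or more arrays above the 40th percentile of all signals, and Tnni1, Myh8, Myh7 and Myh3 did so on 40, 42, 43 and 51 of the 78 arrays. The members were measured in flank tissue of female athymic nude mice (Crl:NU(NCr)-Foxn1nu, which lack a thymus and so most T cells), 4 to 6 weeks old, on Affymetrix arrays with 1 array per sample. G6 and DC101 mice received an adenovirus carrying VEGF-A164 in the flank skin together with an antibody, G6 at 10 mg per kg or DC101 at 20 mg per kg, so antibody and dose cannot be told apart between them. Untreated mice received the virus and no antibody, and all 3 kinds of tissue were taken at days 5, 20 and 60. The control group is labelled day 0. Each group had 8 arrays, except DC101 at day 60 with 6. DC101 is a rat antibody to mouse VEGFR2, the main signalling receptor for VEGF-A in endothelium. The labels class both antibodies as directed to VEGF receptors and give no target for G6 alone. No group is labelled as an empty vector, so virus, injection and VEGF-A cannot be told apart in the comparison with control tissue. Control tissue is labelled day 0 only, so elapsed time and age cannot be told apart from the site in that comparison either.

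Mouse flank skin rests on a thin sheet of striated muscle, the panniculus carnosus, so flank tissue carries fibre transcripts beside those of skin, fat and vessels. In a fibre, an impulse opens the calcium release channel of the sarcoplasmic reticulum, calcium binds troponin on the thin filament, and myosin heads pull until the SERCA pump takes the calcium back. Fast and slow fibres do this with different myosin, troponin and calcium-store genes. When fibres are damaged, satellite cells divide and fuse under the myogenic factors MyoD and myogenin, and the young fibre makes embryonic and perinatal myosin before the adult forms.

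The promoters of 4 members are shown because their genes carry the contrast described below: Myog, the gene of myogenin, Myh3 and Myh8, the embryonic and perinatal myosin heavy chains, and Ckm, the muscle creatine kinase of the adult fibre. Each sequence is the 250 bases before the annotated gene start on the plus strand, from RefSeq (build GRCm38.p6). They lie at chr1:134289754-134290003 for Myog, chr11:67078050-67078299 for Myh3, chr11:67276874-67277123 for Myh8 and chr7:19410844-19411093 for Ckm. Capitals mark each E-box, CANNTG, the letters bound by MyoD and myogenin.
Myog: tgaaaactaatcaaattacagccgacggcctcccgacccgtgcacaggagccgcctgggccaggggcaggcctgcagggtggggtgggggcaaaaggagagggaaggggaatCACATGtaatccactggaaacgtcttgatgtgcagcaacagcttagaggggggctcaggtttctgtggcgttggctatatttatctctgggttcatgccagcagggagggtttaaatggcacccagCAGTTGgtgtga
Myh3: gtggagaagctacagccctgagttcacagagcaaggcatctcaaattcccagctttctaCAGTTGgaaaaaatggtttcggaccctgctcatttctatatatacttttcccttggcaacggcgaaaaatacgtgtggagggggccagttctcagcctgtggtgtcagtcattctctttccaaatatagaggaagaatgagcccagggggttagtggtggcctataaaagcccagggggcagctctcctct
Myh8: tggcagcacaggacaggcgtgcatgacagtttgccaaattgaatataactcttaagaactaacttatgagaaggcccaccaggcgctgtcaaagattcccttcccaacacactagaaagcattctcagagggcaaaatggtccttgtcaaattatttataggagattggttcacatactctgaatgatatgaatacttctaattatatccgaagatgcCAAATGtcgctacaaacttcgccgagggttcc
Ckm: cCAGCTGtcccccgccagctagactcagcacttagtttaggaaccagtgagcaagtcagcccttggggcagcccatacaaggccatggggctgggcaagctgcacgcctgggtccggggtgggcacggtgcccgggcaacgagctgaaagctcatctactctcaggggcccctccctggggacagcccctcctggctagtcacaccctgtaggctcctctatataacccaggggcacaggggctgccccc
Myog had 2 E-boxes in this window, and the others had 1 each, that of Ckm being a CAGCTG. On both strands of the same window, an E-box was present in 29 of the 34 members that matched the promoter table (85.3%) and in 69.3% of all 27025 genes of the table. The CAGCTG form, which is contained in CANNTG, was present in 16 of the 34 members (47.1%) and in 14.7% of all genes. The MEF2 motif was present in 7 of the 34 members (20.6%: Casq2, Myh1, Myh4, Myh8, Myoz2, Pvalb and Ttn) and in 3.42% of all genes. The CArG box was present in 3 of the 34 (8.82%: Acta1, Ldb3 and Myh4) and in 1.62% of all genes. A match describes the letters only. For the MEF2 motif and the CArG box only exact matches to a pattern of 10 positions were counted. A site that departs from the pattern in any position is missed, so a gene without a match may still hold such a site. On chromosome 11 the annotation orders the genes from Myh3 to Myh8 as Myh3, Myh2, Myh1, Myh4 and Myh8. Myh3 and Myh8 thus lie at opposite ends of this stretch, with the fast myosin genes between them.

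Across the series the arrays were scaled alike, with medians of 454.85 to 582.58 signal units, and the median gene differed by -0.05 to 0.08 on the log2 scale in the comparisons below. Levels are given as log2(signal + 16), so a difference of 1 is a doubling and the change of a dim gene is understated. The filter level is 8.44 on this scale. Differences are tested on log2 levels with limma and called where the p-value, adjusted by Benjamini-Hochberg over all 14718 genes, is below 0.05. Which animal an array came from is not given in the labels, and the stated minimum is 5 animals a group, so arrays may share an animal and p-values may be too small. Control tissue had the transcripts that define skeletal muscle, with Acta1 at 16.45 and Ckm at 16.35 ± 0.28 (SD, n = 8). Of 7 cardiac-restricted genes, 2 passed the filter, and Myh6, Myl7 and Tnni3 were below the filter level on all 78 arrays. Several libraries stood apart in the mean level of the 48 members. These were array 79 of untreated tissue at day 60 (10.25) and arrays 86 and 87 of G6 tissue at day 60 (9.62 and 9.79, against 11.88 to 13.90 on the other arrays of that group). DC101 arrays 68 and 72 at day 20 were high (14.61 and 14.95, against 11.65 to 12.91 on the other 6). Counts of called members that these arrays touch are given with and without them. Percentages of all genes tested are those of the main fit, with all arrays, no array weights and no covariates. Percentages of genes called refer to the adjusted p and do not apply to counts at an unadjusted p below 0.05. In bulk tissue, fewer fibres and less RNA per fibre cannot be told apart.

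The first comparison asks what the VEGF-A164 site did to fibre transcripts by day 5. Nearly the whole adult programme was lower than in control tissue, from the filaments to calcium handling and energy supply, while the developmental myosins Myh3 and Myh8 and the slow troponin Tnni1 were higher. Of the 48 members 41 fell and 3 rose, with a median difference of -2.23, where 24.9% of all genes tested fell and 27.9% rose and the median gene differed by 0.05. The arrays of the 2 groups did not overlap for 39 members, against 25.7% of all genes.

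Ampd1, the AMP deaminase that recycles adenine nucleotides in working muscle, fell furthest among the 48. Its lowest, median and highest levels were 9.82, 10.70 and 11.72 in untreated tissue at day 5, against 13.62, 14.55 and 15.64 in control tissue. The groups were well separated, and the difference of -3.74 (SE 0.62, adjusted p = 5.4e-07) left 0.075 times the control signal. Xirp1, an actin-binding protein of the myofibre's attachment sites, stood at 8.69, 9.24 and 9.48 in untreated tissue, against 11.46, 12.29 and 14.19 in control tissue. It too had no overlap, with a difference of -3.41 (SE 0.54, adjusted p = 1.5e-07). Jph1, a junctophilin that ties the calcium store to the surface membrane, stood at 9.66, 10.11 and 10.68 in untreated tissue, against 12.27, 13.32 and 14.38 in control tissue. Every untreated array was below every control array, and the difference was -3.21 (SE 0.44, adjusted p = 3.4e-09). The 5 energy genes all fell (median -2.60), and they include Pygm, the muscle glycogen phosphorylase (-2.91, SE 0.56, adjusted p = 9.7e-06), and Mb, the oxygen store myoglobin (-1.81, SE 0.37, adjusted p = 2.3e-05). All 10 genes of the Z-disc and cytoskeleton fell (median -2.69), with Myot, the Z-disc protein myotilin, at -3.15 (SE 0.49, adjusted p = 1.0e-07).

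Ckm, which buffers ATP, had a smaller difference. It stood at 14.22, 14.95 and 15.23 in untreated tissue at day 5, against 16.06, 16.27 and 16.95 in control tissue, without overlap (difference -1.54, SE 0.45, adjusted p = 0.0026). Of the 11 calcium genes 10 fell (median -2.38), including Ryr1, the calcium release channel (-2.89, SE 0.53, adjusted p = 4.4e-06), and Atp2a1, the fast-fibre SERCA pump (-1.53, SE 0.45, adjusted p = 0.0033). The exception was Casq2, the calcium-binding protein of slow and cardiac stores, which averaged 10.86 ± 0.37 in untreated tissue and 10.86 ± 0.48 in control tissue (SD, n = 8 each). The plot of adult fibre genes by array shows Ckm, Tnni2, Atp2a1 and Jph1 below all control arrays at day 5 without antibody, beside Casq2 and Myh7.

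**Figure D1:**
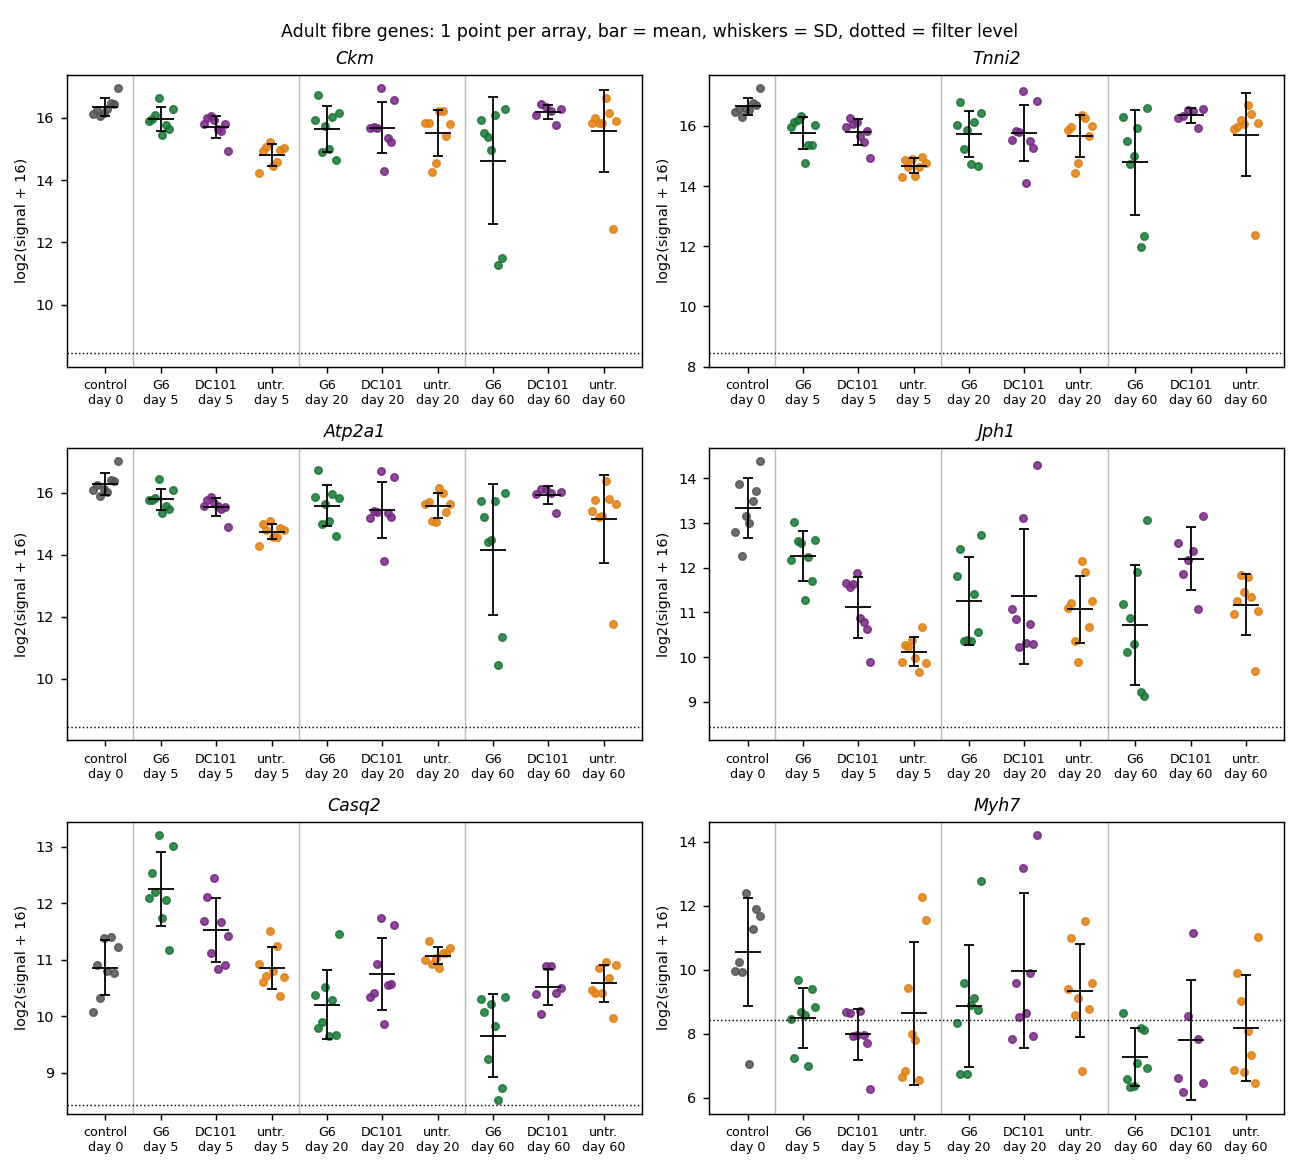
Level of 6 adult fibre genes on each of the 78 arrays, as log2(signal + 16), by group. Each point is 1 array, bars are group means, whiskers are SD, and the dotted line is the filter level of 8.44. Ckm, Tnni2, Atp2a1 and Jph1 of untreated tissue at day 5 lie below all control arrays, Casq2 does not, and the day 60 groups of G6 and untreated tissue hold 2 arrays and 1 array far below the others for Ckm, Tnni2 and Atp2a1.

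All 9 thick-filament genes fell (median -1.66). Myh4, the fastest myosin heavy chain, differed by -1.47 (SE 0.49, adjusted p = 0.0084), and a second Myh4 probe set gave -3.56 (adjusted p = 5.6e-07), so the size for this gene depends on the probe set. Fast myosins are near-identical in sequence, and the split of signal between Myh1, Myh2 and Myh4 is uncertain. Myh7, the slow myosin, was scattered in both groups, at 6.54, 7.90 and 12.26 in untreated tissue and 7.05, 10.75 and 12.41 in control tissue. The groups overlapped widely for Myh7 although the mean difference passed the test (-1.92, SE 0.82, adjusted p = 0.041), and the call was lost when only these 2 groups were fitted. Among the 27 other probe sets of 14 members, all 27 were lower in untreated tissue and all 27 were called, with a median of -2.62, against -2.16 for the brightest probe sets of the same genes.

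Of the 9 thin-filament genes 6 fell and 1 rose (median -1.29). Tnni2, the fast troponin I, stood at 14.31, 14.69 and 14.97 in untreated tissue at day 5, against 16.29, 16.56 and 17.27 in control tissue, and no array overlapped (difference -1.97, SE 0.43, adjusted p = 8.2e-05). Acta1, the skeletal actin, did not pass the test (-0.50, SE 0.41, adjusted p = 0.31). Tnnc1, the troponin C of slow fibres, did not pass either (0.07, SE 0.51, adjusted p = 0.93). Tnni1, the slow troponin I that is also made by developing fibres, stood at 9.73, 10.48 and 11.99 in untreated tissue, against 6.54, 9.07 and 10.64 in control tissue. Its ranges overlapped, and it was higher by 1.70 (SE 0.68, adjusted p = 0.030), a call lost with the RNA ratios in the fit (adjusted p = 0.069). By fibre type, 16 of 16 fast genes fell (median -2.29), while 4 of 7 slow genes fell and 1 rose (median -1.29).

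Myh3 was the member that rose most. It stood at 9.47, 10.33 and 12.31 in untreated tissue at day 5, against 7.27, 8.29 and 8.72 in control tissue. No untreated array was as low as any control array, and the difference was 2.26 (SE 0.35, adjusted p = 1.1e-07). Only 3 of the 8 control arrays were above the filter level for Myh3. Myh8 rose by 1.23 (SE 0.50, adjusted p = 0.031), with 8.28, 9.26 and 12.45 in untreated tissue and 5.53, 8.87 and 10.20 in control tissue. Its ranges overlapped. Myod1, expressed in satellite cells and myoblasts, stood at 8.77, 9.14 and 9.40 in untreated tissue, against 9.52, 10.36 and 10.92 in control tissue. It fell without overlap, by 1.20 on the log2 scale (SE 0.21, adjusted p = 1.2e-06). Myog, which drives the fusion stage, differed by -0.64 (SE 0.31, adjusted p = 0.074) and was not called.

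The other filament, Z-disc, calcium and energy genes that were called at day 5 were lower too, with adjusted p-values of 1.1e-08 (Jph2) to 0.012 (Myl1) for those given next. Among the thick-filament genes, the fast myosins Myh2 (-2.35) and Myh1 (-1.32) fell with Myl1 and Mylpf (-1.05 and -1.66), the light chains of fast fibres, and with Mybpc1 and Mybpc2 (-2.57 and -2.40), the slow and fast myosin-binding proteins C, and titin, Ttn (-1.56). These filament genes had no overlap between untreated and control arrays. Among the thin-filament genes, the ruler protein nebulin, Neb, differed by -2.67, the fast troponin T, Tnnt3, by -2.24, beta-tropomyosin, Tpm2, by -2.23 and the fast troponin C, Tnnc2, by -1.07, again without overlap. The slow troponin T, Tnnt1, fell by 1.29 on the log2 scale with overlapping ranges (10.74 to 11.57 in untreated tissue, 11.31 to 12.91 in control tissue).

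At the Z-disc, Ldb3, a scaffold that binds alpha-actinin, differed by -3.08, Smpx by -3.04, Myoz1 and Myoz2, the calsarcins of fast and slow fibres, by -2.72 and -2.41, the alpha-actinins Actn3 and Actn2 by -2.67 and -2.58, and the intermediate filament desmin, Des, by -1.90. Every untreated array was below every control array for each of these genes. In calcium handling, Trdn, which links the release channel to the store, differed by -2.98, Casq1 by -2.77, Cacna1s, the voltage sensor, by -2.74, Sln by -2.38, Pvalb, the calcium buffer of fast fibres, by -2.34 and Jph2 by -2.08, all without overlap. Cacng1, a subunit of the voltage sensor, had overlapping ranges (9.89 to 11.24 in untreated tissue, 11.01 to 12.38 in control tissue) and a difference of -1.14 (SE 0.31, adjusted p = 0.0014). The glycolytic enzyme Eno3 completed the energy genes at -2.60 (SE 0.46, adjusted p = 2.1e-06).

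**Figure D2:**
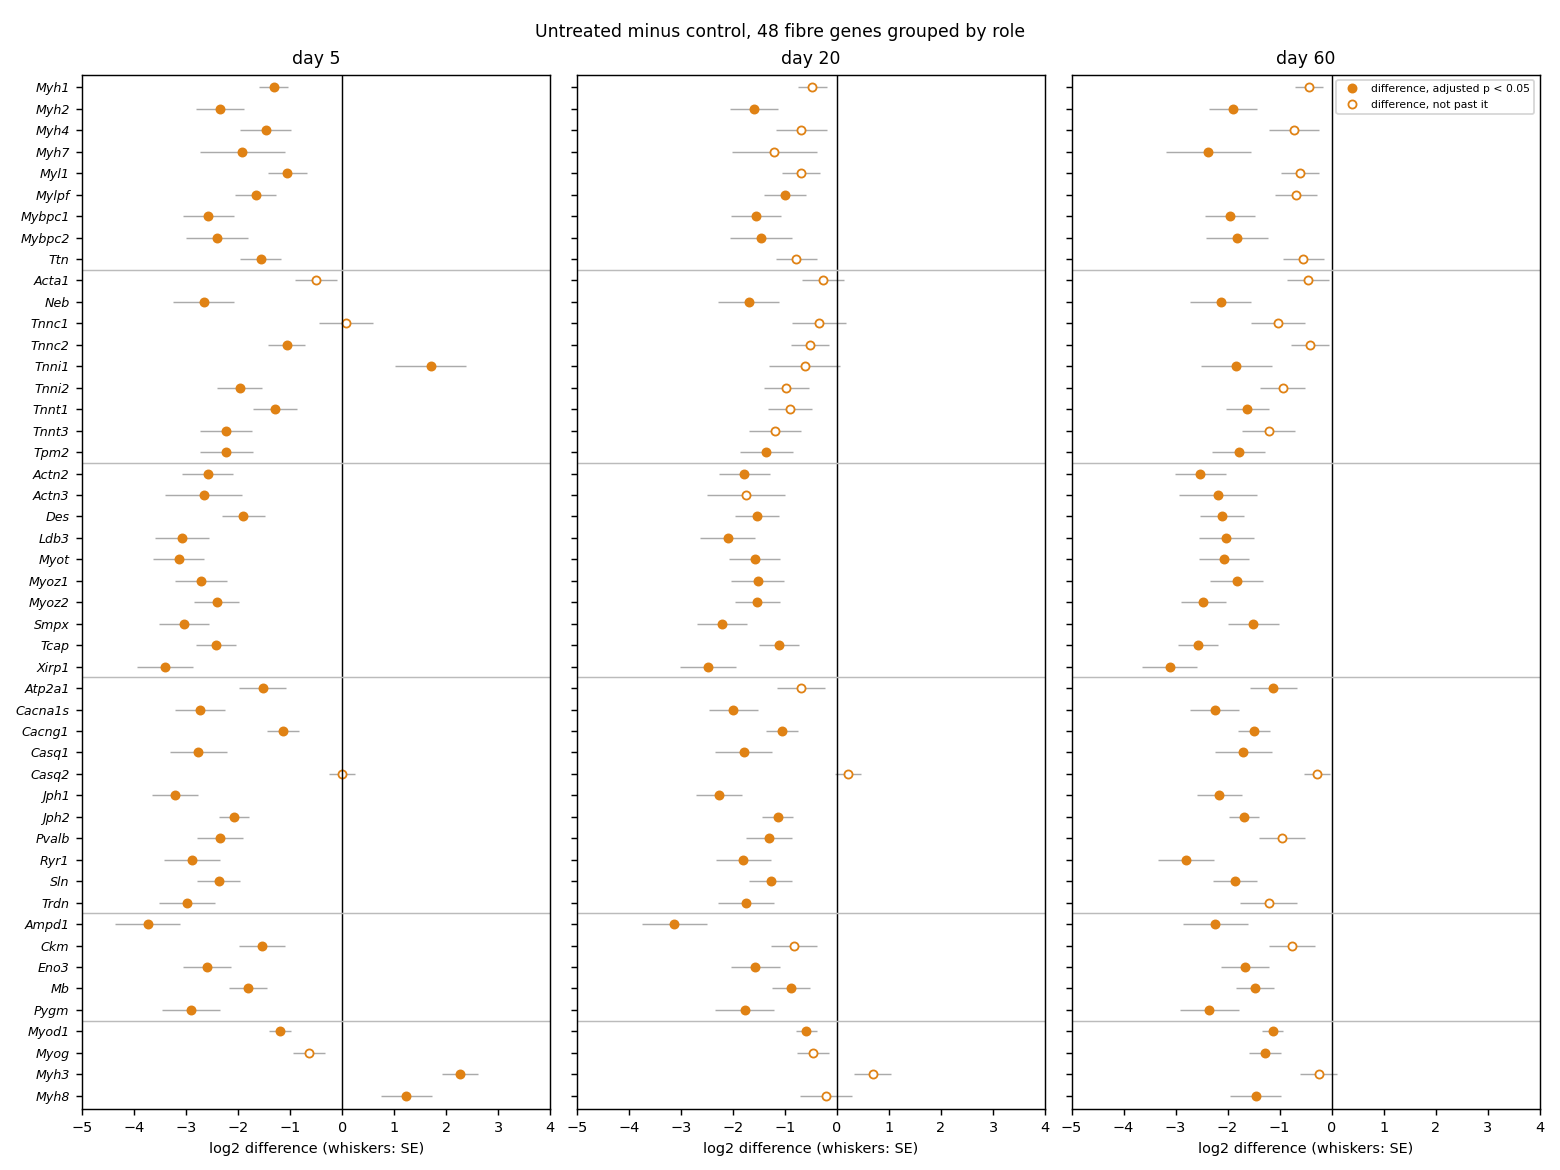
Log2 difference of untreated minus control tissue for each of the 48 members at days 5, 20 and 60, grouped by role. Filled points passed the test (adjusted p below 0.05) and whiskers are SE. At day 5 the members lie at a median of -2.23, with Tnni1, Myh8 and Myh3 above 0, and at days 20 and 60 the medians are -1.24 and -1.67.

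Other transcripts of the same tissue moved as well at day 5. Of 28 other tested genes of fibre structure and membrane 25 fell and 1 rose (median -2.46), among them Smyd1, a muscle methyltransferase (-3.39, SE 0.56, adjusted p = 4.4e-07), and of 21 other muscle metabolism genes 18 fell and 1 rose (median -2.67). Of 17 satellite cell and regeneration genes 7 rose and 3 fell (median 0.33), with Tnnt2, a troponin T of heart and embryonic muscle, higher by 2.74 (SE 0.26, adjusted p = 5.8e-14) and Myf6, the myogenic factor of adult fibres, at -3.03 (SE 0.51, adjusted p = 7.7e-07). The ubiquitin ligases of muscle wasting, Trim63 and Fbxo32, differed by -2.12 (SE 0.55, adjusted p = 0.00077) and -1.88 (SE 0.40, adjusted p = 4.5e-05). In the atrophy list as a whole 5 of 10 fell and 2 rose. All 17 respiratory chain genes fell (median -1.09).

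Markers of other cell types moved in the same comparison. Of 10 endothelial genes 9 rose and 1 fell, and their mean level was 12.24 to 12.86 on untreated arrays, against 10.09 to 10.75 on control arrays. Of 10 macrophage genes 9 rose (13.72 to 14.07 on untreated arrays, 11.47 to 12.87 on control arrays), and of 10 keratinocyte genes 5 rose (13.51 to 15.29 on untreated arrays, 11.50 to 13.96 on control arrays). Of 8 adipocyte genes 6 fell (11.14 to 11.73 on untreated arrays, 12.06 to 14.26 on control arrays) and of 5 Schwann cell genes 4 fell. Of 9 smooth muscle genes 4 rose and 2 fell, and of the 2 cardiac-restricted genes Nppb rose by 0.37. The part of these cell types in the fibre gene differences was not tested. The ratio of 3' to 5' Actb signal, which grows as RNA is broken, was 1.36 to 1.69 on untreated and 1.21 to 1.50 on control arrays. The Gapdh ratio was 0.907 to 1.10 on untreated and 0.772 to 0.860 on control arrays, without overlap. With both ratios in a fit over all groups, 42 of 48 members were called, 41 lower and 1 higher, which was Myh3 (median -2.21). Because the Gapdh ratio separates the groups, group and RNA ratio cannot be told apart in this comparison.

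At days 20 and 60 the adult fibre genes of untreated tissue were still lower than in control tissue, with smaller medians and fewer members called, and no member was higher. At day 20, 29 of 48 fell (median -1.24), where 18.4% of all genes fell and 22.7% rose, and the groups did not overlap for 8 members against 10.3% of all genes. At day 60, 33 of 48 fell (median -1.67), where 16.9% of all genes fell and 18.7% rose, and the groups did not overlap for 10 members against 6.24% of all genes. The Actb 3' to 5' ratio was 1.58 to 2.57 on these untreated arrays and 1.21 to 1.50 on control arrays, without overlap, and 5 members fell with the RNA ratios in the fit (median -0.52). Group and RNA ratio cannot be told apart in the day 60 comparison. These comparisons share the control arrays, all labelled day 0, with that at day 5, so site and elapsed time cannot be told apart. The Z-disc genes were the most often called, with 9 of 10 lower at day 20 and 10 of 10 at day 60, and the thin-filament genes among the least, with 2 of 9 and 4 of 9. At day 20, 14 members were called without untreated arrays 51 and 52, whose member means were low (12.07 and 12.13).

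Markers of other cell types moved at these days too. At day 20, 9 of 10 endothelial, 5 of 10 macrophage, 4 of 10 keratinocyte and 5 of 9 smooth muscle genes rose, while 6 of 8 adipocyte genes and 1 smooth muscle gene fell. At day 60, 7 of 10 macrophage and 5 of 10 keratinocyte genes rose, 4 of 8 adipocyte and 4 of 9 smooth muscle genes fell, and no endothelial gene was called. Their part in the fibre gene differences was not tested.

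At day 20 Ampd1 stood at 9.03, 11.97 and 12.57 in untreated tissue, still below every control array (-3.13, SE 0.62, adjusted p = 3.5e-05). Xirp1 differed from control by -2.47 (SE 0.54, adjusted p = 0.00013) and Jph1 by -2.27 (SE 0.44, adjusted p = 1.9e-05). Several abundant fibre genes no longer passed by their brightest probe set: Ckm (-0.82, adjusted p = 0.14), Tnni2 (-0.98, adjusted p = 0.062), Atp2a1 (-0.69, adjusted p = 0.23) and Myh4 (-0.68, adjusted p = 0.27). The second Myh4 probe set did pass at day 20 (-2.31, adjusted p = 0.0012). At day 60 it passed again (-3.05, adjusted p = 4.5e-05), where the brightest gave -0.73 (adjusted p = 0.24). Among the 27 other probe sets of 14 members, 25 were called at day 20 (median -1.77) and 21 at day 60 (median -1.61). All 27 had the sign of the brightest probe set at both days, so a lost call for a gene can depend on the probe set. Myh3, at 8.93 in untreated tissue at day 20, differed by 0.69 (adjusted p = 0.11), and Myh7 by -1.21 (adjusted p = 0.24).

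At day 60 the members that fell furthest were Xirp1 (-3.12, SE 0.54, adjusted p = 5.7e-06), Ryr1 (-2.80, SE 0.53, adjusted p = 3e-05) and Tcap, the cap of titin at the Z-disc (-2.58, SE 0.38, adjusted p = 3.9e-07). Tcap stood at 10.32, 12.80 and 13.96 in untreated tissue at day 60, against 14.66, 15.21 and 16.12 in control tissue, and the groups did not overlap. Both myogenic factors were lower, Myog at -1.28 (SE 0.31, adjusted p = 0.00073) and Myod1 at -1.14 (SE 0.21, adjusted p = 1.6e-05). The slow genes Myh7 (-2.37, SE 0.82, adjusted p = 0.018) and Tnni1 (-1.83, SE 0.68, adjusted p = 0.029) were lower as well. Myh8 was below the filter level on all 8 untreated arrays and was at least 1.14-fold higher in control tissue (adjusted p = 0.016). Acta1 and Ckm, each by its brightest probe set, did not pass (-0.45, adjusted p = 0.40, and -0.77, adjusted p = 0.18). Without array 79, 26 members were called at day 60 (median -1.27), Xirp1, Ryr1 and Tcap among them (-2.64, -2.38 and -2.25), while Ckm and Acta1 differed by -0.32 and -0.00079 and the calls for Tnni1 and Myh8 were lost (adjusted p = 0.054 each).

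The change over time was tested directly. Between day 20 and day 5 of untreated tissue 5 members rose and 3 fell (median 0.84), where 10.4% of all genes rose and 9.78% fell, and the groups did not overlap for 2 members against 7.39% of all genes. The counts of called members were thus near or below the shares of all genes. The 3 that fell were Tnni1 (-2.33, adjusted p = 0.0095), Myh3 (-1.57, adjusted p = 0.00058) and Myh8 (-1.44, adjusted p = 0.030), the same 3 that had risen at day 5. Both comparisons use the untreated arrays of day 5, so the rise and the fall are not independent. Those that rose were Myot (1.57, adjusted p = 0.015), Tcap (1.31, adjusted p = 0.0099), the junctophilin Jph2 (0.94, adjusted p = 0.016), the fast myosin Myh1 (0.85, adjusted p = 0.020) and Myod1 (0.61, adjusted p = 0.029). The count was 20 without arrays 51 and 52, 39 with array weights, 29 with only the 2 groups fitted and 13 with the RNA ratios in the fit. Between day 60 and day 20 no member rose and 4 fell, where 11.9% of all genes rose and 13.7% fell, and no member's groups were apart against 2.99% of all genes. Here too the counts were below the shares of all genes. The 4 that fell were Tcap (-1.47, adjusted p = 0.0029), Myh3 (-0.94, adjusted p = 0.040), Myog (-0.82, adjusted p = 0.040) and Myod1 (-0.55, adjusted p = 0.043). Without array 79, 2 were called, Tcap and Myh3, and the median was 0.06. With the Actb and Gapdh ratios in the fit the direction turned, with 5 members higher and none lower (median 0.66). Between day 20 and day 5, 5 of 10 endothelial and 6 of 10 macrophage genes fell, 3 of 5 Schwann cell and 3 of 9 smooth muscle genes rose, and 1 endothelial gene rose. Between day 60 and day 20, 9 of 10 endothelial and 7 of 9 smooth muscle genes fell, 4 of 8 adipocyte and 2 of 10 keratinocyte genes rose, and 1 adipocyte gene fell. Their part in the fibre gene changes was not tested.

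With antibody, the mean level at day 5 lay between those of untreated and control tissue for 41 of 48 members under G6 and 42 under DC101. It lay above both for Myh3, Myh8, Myog, Tnni1 and Casq2 under each antibody, and for Tnnc1 under G6. These positions were counted for the members only, so no share of all genes stands beside them. Untreated arrays set 1 bound of the range and are also the reference of the differences that follow. Under G6 39 of 48 members rose relative to untreated tissue and none fell (median 1.41), where 16.7% of all genes rose and 15% fell, and the groups did not overlap for 30 members against 12.1% of all genes. Under DC101 7 members rose and none fell (median 1.02), where 4.66% of all genes rose and 7.11% fell, and the groups did not overlap for 4 members (Myh1, Tcap, Jph2 and Eno3) against 3.49% of all genes. The 2 comparisons share the untreated arrays. The DC101 count depends on the spread assumed: 42 members were called when only the DC101 and untreated arrays were fitted, 41 with array weights, and 32 had an unadjusted p below 0.05. Percentages of all genes for these 3 counts are not given here. The mean of the 48 members was 13.86 ± 0.50 in G6 tissue, 13.42 ± 0.43 in DC101 tissue, 12.47 ± 0.27 in untreated tissue and 14.32 ± 0.48 in control tissue (SD, n = 8 each).

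**Figure D3:**
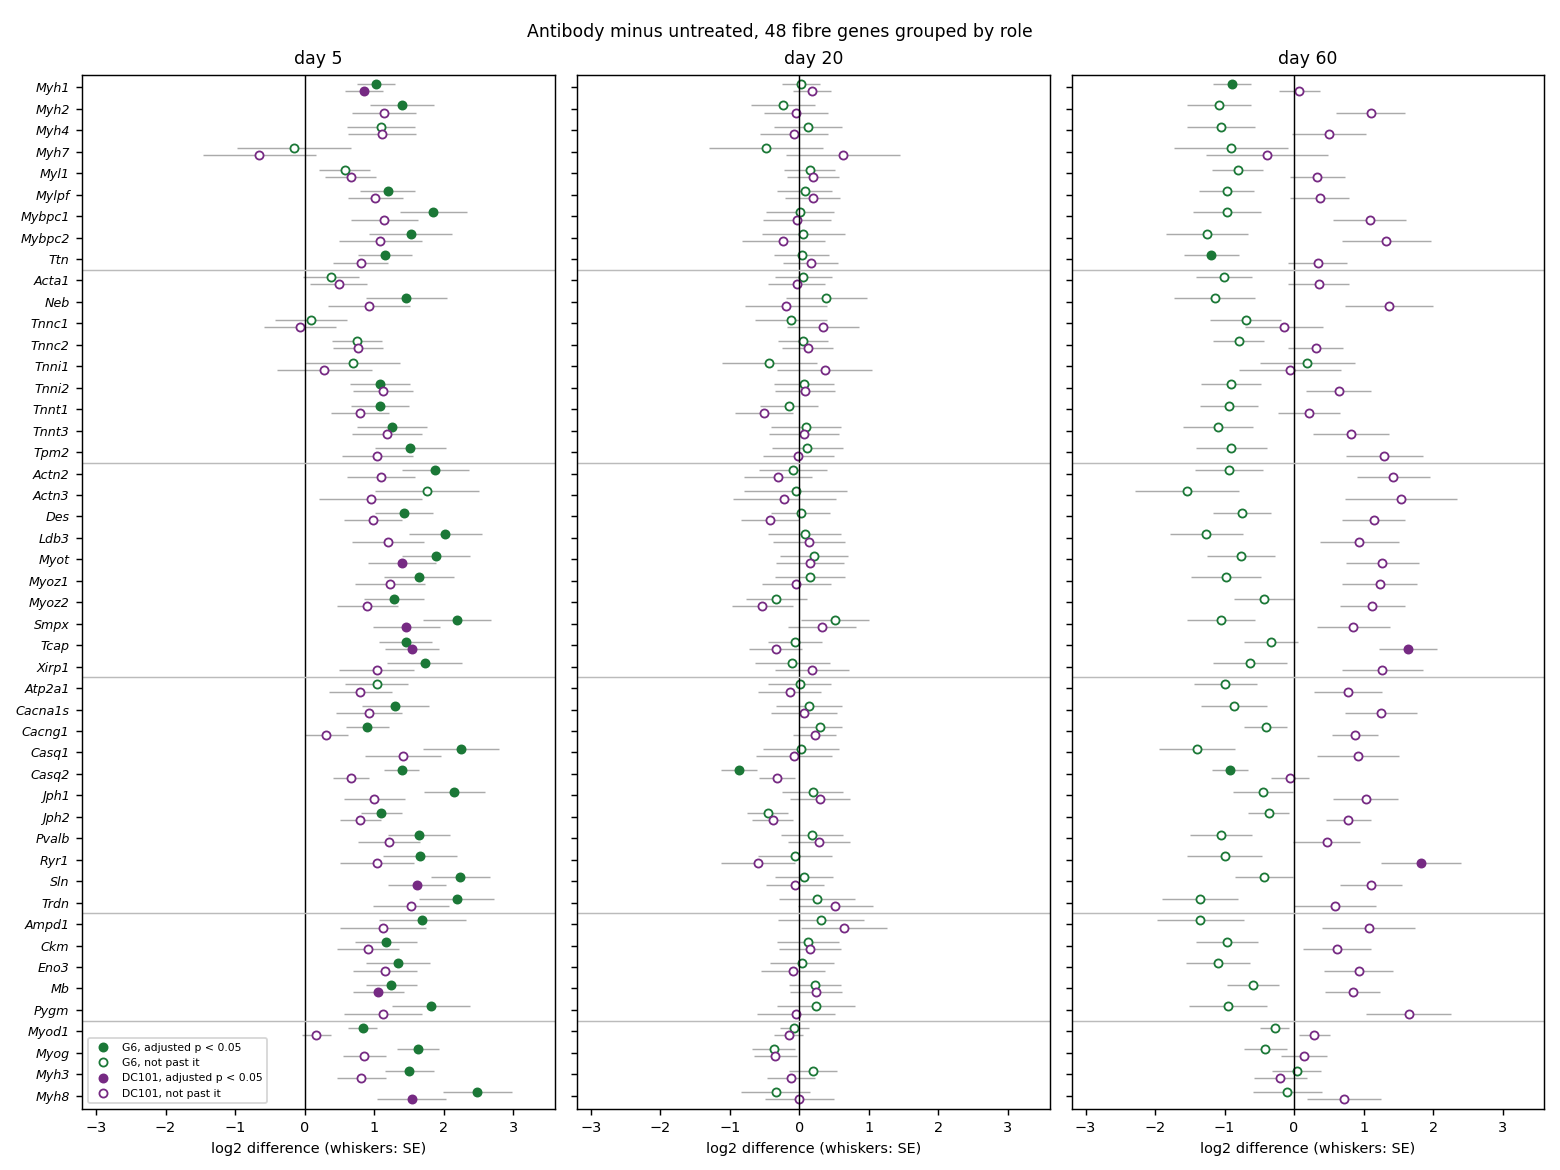
Log2 difference of G6 (green) and DC101 (purple) minus untreated tissue of the same day for the 48 members, by role. Filled points passed the test and whiskers are SE. At day 5 the medians are 1.41 for G6 and 1.02 for DC101, at day 20 they are 0.06 and -0.03, and at day 60 they are -0.93 and 0.85.

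The members that rose most under G6 at day 5 were Myh8, Casq1 and Sln. Myh8 stood at 10.33, 12.55 and 13.75 in G6 tissue, 10.18, 11.22 and 12.65 in DC101 tissue and 8.28, 9.26 and 12.45 in untreated tissue. Each treated group overlapped the untreated one, and the difference was 2.48 under G6 (SE 0.50, adjusted p = 6.8e-05) and 1.54 under DC101 (SE 0.50, adjusted p = 0.030). Casq1, the calcium store protein of fast fibres, rose by 2.25 under G6 (SE 0.55, adjusted p = 0.00097), and its difference under DC101 was 1.41 (SE 0.55, adjusted p = 0.078). Sln, sarcolipin, a small inhibitor of the SERCA pump, stood at 11.89, 13.59 and 14.23 in G6 tissue, against 10.30, 11.30 and 12.07 in untreated tissue. The ranges barely touched, and Sln rose by 2.24 under G6 (SE 0.42, adjusted p = 2.3e-05) and by 1.62 under DC101 (SE 0.42, adjusted p = 0.0059). By role, 10 of 11 calcium genes, 9 of 10 Z-disc genes and all 5 energy genes rose under G6.

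Tcap stood at 13.15, 14.43 and 14.93 in G6 tissue, 13.44, 14.40 and 14.86 in DC101 tissue and 12.34, 12.85 and 13.37 in untreated tissue. The DC101 arrays were all above the untreated ones, while the G6 arrays overlapped them (DC101 difference 1.54, SE 0.38, adjusted p = 0.0042). The other members called under DC101 were Smpx, a small cytoskeletal protein (1.46, SE 0.49, adjusted p = 0.036), Myot (1.39, SE 0.49, adjusted p = 0.048), Mb (1.06, SE 0.37, adjusted p = 0.046) and Myh1 (0.85, SE 0.27, adjusted p = 0.030). Ckm rose by 1.16 under G6 (SE 0.45, adjusted p = 0.038), with 15.46, 15.93 and 16.65 in G6 tissue, and its difference under DC101 was 0.91 (adjusted p = 0.18). Tnni2 rose by 1.09 under G6 (SE 0.43, adjusted p = 0.045), and its difference under DC101 was 1.12 (adjusted p = 0.076). Myh4 (1.09, adjusted p = 0.078) and Atp2a1 (1.04, adjusted p = 0.073) did not pass under G6, although every G6 array was above every untreated one. Acta1 (0.38, adjusted p = 0.51), Tnni1 (0.69, adjusted p = 0.47) and Myh7 (-0.15, adjusted p = 0.91) did not pass either.

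At day 5 Trdn rose by 2.18 under G6 (adjusted p = 0.0013) and had 1.53 under DC101 (adjusted p = 0.053), and Jph1 rose by 2.15 under G6 (adjusted p = 8.4e-05), where its G6 and untreated arrays did not overlap. Ldb3 rose by 2.02 under G6 (adjusted p = 0.0019), with 1.20 under DC101 (adjusted p = 0.12), and Actn2 by 1.88 (adjusted p = 0.0019), with 1.09 under DC101 (adjusted p = 0.13). In the thick filament Mybpc1 rose by 1.85 under G6 (adjusted p = 0.0022), and Myl1 had 0.58 (adjusted p = 0.23). The G6 arrays lay above all untreated arrays for Trdn, Ldb3, Actn2 and Mybpc1 but not for Myl1. Actn3 (1.76, adjusted p = 0.061) and Tnnc2 (0.75, adjusted p = 0.11) had no overlap under G6 and were not called. Cacng1 rose by 0.90 under G6 (adjusted p = 0.020) with overlapping ranges, and had 0.31 under DC101 (adjusted p = 0.57).

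All 4 developmental genes rose under G6. Myh3, already higher than control without antibody, stood at 10.88, 11.86 and 13.33 in G6 tissue, 9.62, 11.51 and 12.72 in DC101 tissue, 9.47, 10.33 and 12.31 in untreated tissue and 7.27, 8.29 and 8.72 in control tissue. All arrays of virus-injected tissue were above all control arrays, and G6 was higher than untreated tissue by 1.50 (SE 0.35, adjusted p = 0.00061), with DC101 at 0.81 (adjusted p = 0.12). Myog stood at 9.78, 11.11 and 11.59 in G6 tissue and 8.80, 9.35 and 10.41 in untreated tissue, with 8.94, 10.06 and 10.83 in control tissue. Of the 8 G6 arrays 7 were above the highest untreated array, and Myog rose by 1.63 under G6 (SE 0.31, adjusted p = 2.6e-05), with 0.86 under DC101 (adjusted p = 0.054). Myod1 rose by 0.84 under G6 (SE 0.21, adjusted p = 0.0012). In the direct test of G6 against DC101 at day 5, Myod1 was the only member called (0.67, SE 0.21, adjusted p = 0.024), where 5.82% of all genes were higher and 5.65% lower, and the median of the 48 was 0.44. The arrays of the 2 antibodies overlapped for every member, where 2.16% of all genes had groups apart. A difference between the antibodies was therefore not shown for the other 47. The plot of developmental genes by array shows the highest group means of Myh3, Myh8 and Tnni1 at day 5, with G6 above untreated tissue.

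**Figure D4:**
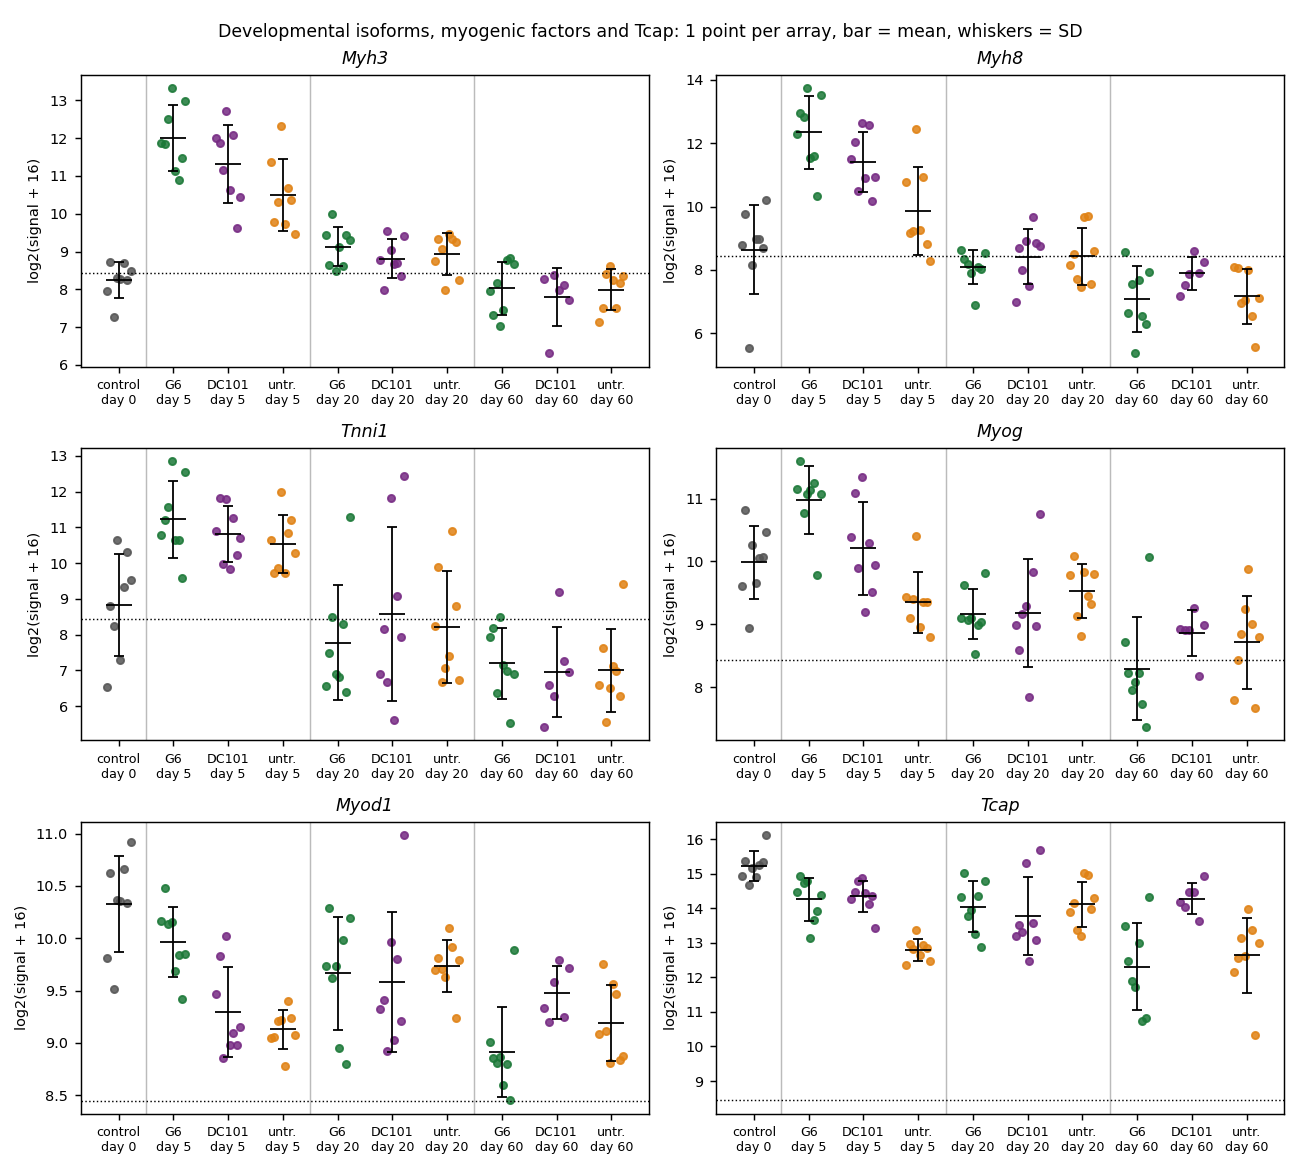
Level of Myh3, Myh8, Tnni1, Myog, Myod1 and Tcap on each of the 78 arrays, as log2(signal + 16), by group. Points are arrays, bars are means, whiskers are SD, and the dotted line is the filter level of 8.44. Myh3 averages 12.01, 11.32 and 10.50 in G6, DC101 and untreated tissue at day 5 and 8.24 in control tissue, and by day 60 it averages 8.03, 7.79 and 7.99 in the 3 groups.

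Casq2, which was level with control tissue at day 5 without antibody, was called higher under G6 than in untreated tissue at day 5 and lower at days 20 and 60, and lower than under DC101 at day 60. It stood at 11.18, 12.15 and 13.21 in G6 tissue at day 5, against 10.36, 10.75 and 11.51 in untreated tissue and 10.07, 10.86 and 11.40 in control tissue. All but 1 of the G6 arrays were above every untreated and control array, and G6 was higher than untreated tissue by 1.40 (SE 0.26, adjusted p = 1.7e-05). At day 20 the sign was the other way, with 9.65, 10.10 and 11.46 in G6 tissue and 10.86, 11.08 and 11.33 in untreated tissue (difference -0.87, SE 0.26, adjusted p = 0.021). That call was lost with the RNA ratios in the fit (adjusted p = 0.051), with only the 2 groups fitted (adjusted p = 0.052) and without untreated arrays 51 and 52 (adjusted p = 0.10). The change in the G6 effect between days 20 and 5 was -2.26 for Casq2 (adjusted p = 3.7e-05). At day 60 Casq2 was again lower under G6 than in untreated tissue (difference -0.92, SE 0.26, adjusted p = 0.011) and than under DC101 (-0.86, SE 0.28, adjusted p = 0.0099). Without arrays 86 and 87 these were -0.58 (adjusted p = 0.16) and -0.52 (adjusted p = 0.13), and with the RNA ratios -0.46 (adjusted p = 0.52) and 0.06 (adjusted p = 0.98). With only the 2 groups fitted, the call against untreated tissue was also lost (adjusted p = 0.066).

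Other muscle lists were counted at day 5, where 16.7% of all genes rose under G6 and 4.66% under DC101. Under G6 21 of 28 other fibre structure genes rose and 1 fell, 16 of 21 muscle metabolism genes rose, and 9 of 17 satellite cell and regeneration genes rose and 1 fell. Actc1, the cardiac actin that developing skeletal fibres also make, rose by 3.08 under G6 (SE 0.41, adjusted p = 1.8e-08) and by 1.70 under DC101 (SE 0.41, adjusted p = 0.0033). Under DC101 2 of 28, 4 of 21 and 3 of 17 genes of these lists rose and none fell. Of 17 respiratory chain genes 10 rose under G6 and 2 under DC101. In the same comparison 9 of 10 endothelial genes fell under G6 and 1 of 10 under DC101. Their mean level was 10.06 to 11.59 on G6 arrays, 11.66 to 12.75 on DC101 arrays and 12.24 to 12.86 on untreated arrays. Of 10 keratinocyte genes 5 rose under G6 and none under DC101, with mean levels of 14.62 to 15.98 on G6 arrays, 14.32 to 15.90 on DC101 arrays and 13.51 to 15.29 on untreated arrays. Of 9 smooth muscle genes 3 fell and 2 rose under G6 and none was called under DC101, with mean levels of 9.94 to 10.68 on G6 arrays, 11.28 to 12.09 on DC101 arrays and 11.29 to 11.88 on untreated arrays. Of 5 Schwann cell genes 3 rose under each antibody. Their part in the fibre gene differences was not tested.

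The RNA ratios differed between the groups at day 5 as well. The Actb 3' to 5' ratio was 1.32 to 2.43 on G6 arrays, 1.19 to 1.66 on DC101 arrays and 1.36 to 1.69 on untreated arrays. The Gapdh ratio was 0.900 to 1.55 on G6 arrays, 0.785 to 1.01 on DC101 arrays and 0.907 to 1.10 on untreated arrays. With both ratios in the fit 37 members rose under G6 (median 1.42) and 5 under DC101 (median 0.95).

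At day 20 the mean of the 48 members was 13.11 ± 0.74 in G6 tissue, 13.11 ± 1.11 in DC101 tissue and 13.10 ± 0.69 in untreated tissue (SD, n = 8 each). Without arrays 68 and 72 the DC101 mean was 12.55 ± 0.47 (SD, n = 6). Under G6 Casq2 fell and no member rose, where 3.97% of all genes rose and 6.01% fell. Under DC101 limma called 0 of 48 members, with 0 at an unadjusted p below 0.05, where 2.44% of all genes rose and 5.25% fell. Without arrays 68 and 72 it called 2, both lower under DC101, namely Myoz2 (-1.36, adjusted p = 0.031) and Tnnt1 (-1.28, adjusted p = 0.036). Between G6 and DC101 limma called 0, with 1 at an unadjusted p below 0.05, where 0.136% of all genes were higher and 0.109% lower. The median differences were 0.06 for G6 minus untreated, -0.03 for DC101 minus untreated and 0.05 for G6 minus DC101, and without arrays 68 and 72 the last 2 were -0.55 and 0.53. Of 10 endothelial genes 8 fell under G6 and 5 under DC101, of 9 smooth muscle genes 2 fell under G6 and 3 under DC101, and 4 of 10 keratinocyte genes rose under G6. Their part was not tested. In the 3 comparisons at day 20 the groups overlapped for every member, where 0.129%, 0.34% and 0.034% of all genes had groups apart.

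The effect of each antibody was compared between days. The G6 effect was smaller at day 20 than at day 5 for 7 members, where 4.07% of all genes had a larger and 5.10% a smaller effect. At an unadjusted p below 0.05 there were 27 members, and the share of all genes at that threshold is not given here. The 7 were Myh8 (-2.82, adjusted p = 0.0071), Casq2, Sln (-2.18, adjusted p = 0.014), Myog (-1.997, adjusted p = 0.0022), Jph1 (-1.96, adjusted p = 0.033), Jph2 (-1.55, adjusted p = 0.013) and Myod1 (-0.91, adjusted p = 0.038). For DC101 the difference was called for Tcap (-1.89, adjusted p = 0.0499), where 0.910% of all genes had a larger and 0.904% a smaller effect. No member was called with a pseudocount of 1, with no filter, with median scaling, with adjacent arrays averaged or with the RNA ratios, where limma gave 1 to 15 at an unadjusted p below 0.05. Without untreated arrays 51 and 52, 15 members were called for G6. Without DC101 arrays 68 and 72, 9 were called for DC101, all with a smaller effect at day 20.

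At day 60 the comparison with the most members called was that between the antibodies, with G6 tissue the lower. Against DC101, 42 of 48 members were lower under G6 (median -1.57), where 21.9% of all genes were lower and 18.6% higher. The groups overlapped for every member, where 4.27% of all genes had groups apart. All 11 calcium, all 10 Z-disc and all 5 energy genes were lower, with 8 of 9 thick-filament, 7 of 9 thin-filament and 1 of 4 developmental genes. The 3 largest differences were those of Actn3, the fast-fibre alpha-actinin of the Z-disc (-3.08, SE 0.80, adjusted p = 0.0016), Ryr1 (-2.83, SE 0.58, adjusted p = 8.6e-05) and Pygm (-2.59, SE 0.61, adjusted p = 0.0005). Myh7, Tnnc1, Tnni1, Myog, Myh3 and Myh8 did not pass.

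Ckm at day 60 stood at 11.27, 15.46 and 16.28 in G6 tissue, 15.79, 16.26 and 16.43 in DC101 tissue and 12.43, 15.88 and 16.63 in untreated tissue. The upper G6 arrays reached the DC101 range, and the mean difference between the antibodies was -1.58 (SE 0.48, adjusted p = 0.0067). Ryr1 stood at 8.71, 12.19 and 14.61 in G6 tissue, 13.64, 14.86 and 15.34 in DC101 tissue and 9.91, 13.09 and 14.47 in untreated tissue. Most G6 and untreated arrays were below the DC101 range. Among the other members called were Atp2a1 (-1.76, SE 0.49, adjusted p = 0.0031), Myh4 (-1.56, SE 0.53, adjusted p = 0.014), Tnni2 (-1.55, SE 0.47, adjusted p = 0.0059), Acta1 (-1.36, SE 0.44, adjusted p = 0.010) and Myod1 (-0.57, SE 0.22, adjusted p = 0.035).

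This result rests on the libraries that stood apart and moves with the RNA ratios. Without G6 arrays 86 and 87, 14 members were called (median -0.99), led by Ryr1 (-1.77, SE 0.51, adjusted p = 0.0053), Actn2, the alpha-actinin of all fibres (-1.63, SE 0.51, adjusted p = 0.0099), and Pygm (-1.49, SE 0.54, adjusted p = 0.025). The 3' to 5' Actb ratio was 1.81, 2.22 and 3.03 on G6 arrays at day 60, against 1.17, 1.302 and 1.56 on DC101 arrays. The 2 groups did not overlap in this ratio. Untreated arrays at day 60 had 1.58, 1.88 and 2.57, and control arrays 1.21, 1.31 and 1.50. With the Actb and Gapdh ratios in the fit, limma called 0 of 48 members and 0 of 14718 genes between G6 and DC101 at day 60, with 0 members and 1777 genes at an unadjusted p below 0.05, and the members' median was 0.36. Because the ratio separates the groups, antibody and RNA ratio cannot be told apart here.

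Other lists moved beside them at day 60. Between G6 and DC101, 8 of 10 endothelial genes, 9 of 10 macrophage genes, 9 of 9 smooth muscle genes, 4 of 5 Schwann cell genes and 25 of 28 other fibre structure genes were lower, and 5 of 10 keratinocyte genes were higher. The mean Schwann cell level was 9.51 and 9.87 on arrays 86 and 87, against 11.35 to 12.50 on the other G6 arrays and 12.47 to 13.22 on DC101 arrays. The mean keratinocyte level was 16.10 and 15.97 on those 2 arrays, against 12.93 to 15.38 on DC101 arrays. Their part in the fibre gene difference was not tested.

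**Figure D5:**
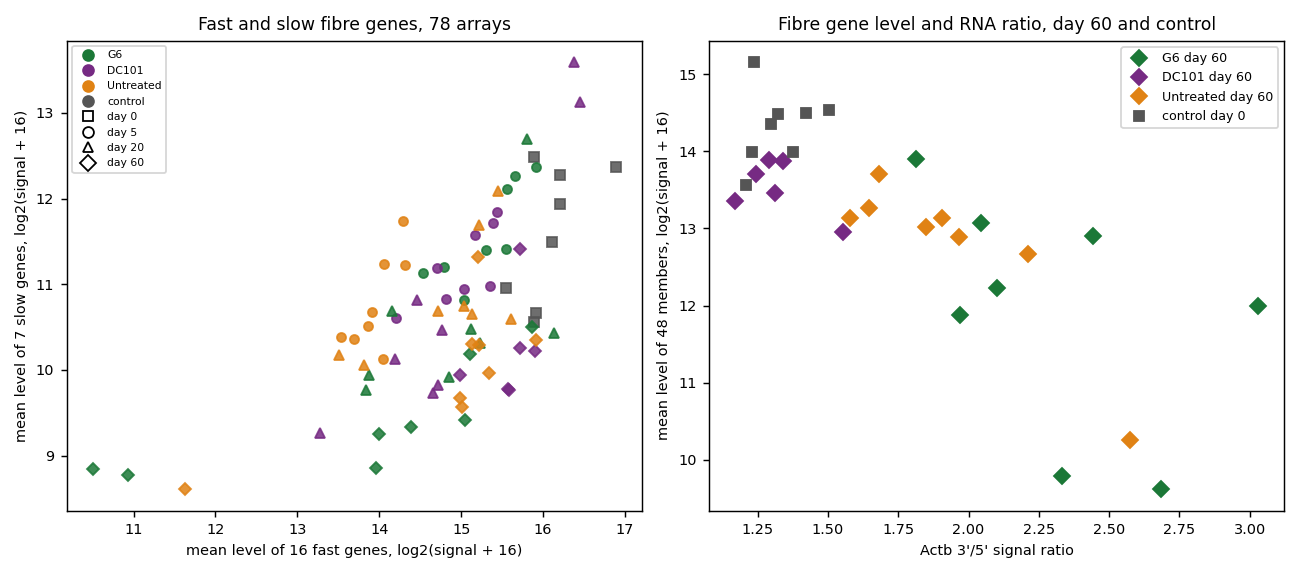
Left, the mean level of the 16 fast genes against that of the 7 slow genes on each of 78 arrays, as log2(signal + 16). Right, the Actb 3' to 5' signal ratio of each array of the day 60 and control groups against the mean level of the 48 members. On the left DC101 arrays 68 and 72 at day 20 have slow-gene means of 13.13 and 13.59, and on the right G6 arrays have ratios of 1.81 to 3.03 and DC101 arrays 1.17 to 1.56.

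Against untreated tissue at day 60, the median differences had opposite signs under the 2 antibodies, with few members called, near or below the shares of all genes. Under DC101 2 members rose (median 0.85), where 4.65% of all genes rose and 6.91% fell, namely Ryr1 (1.83, SE 0.58, adjusted p = 0.028) and Tcap (1.64, SE 0.42, adjusted p = 0.0059). Without array 79 of untreated tissue Tcap alone was called (1.31, adjusted p = 0.030, median 0.47). Under G6 3 fell (median -0.93), where 2.64% of all genes rose and 9.26% fell. The groups overlapped for every member in both comparisons, where 2.42% of all genes under DC101 and 0.258% under G6 had groups apart. The 3 were Ttn, the molecular spring titin (-1.19, SE 0.39, adjusted p = 0.036), Casq2, and Myh1 (-0.90, SE 0.27, adjusted p = 0.021). In the same comparison 7 of 10 macrophage, 3 of 5 Schwann cell, 4 of 9 smooth muscle and 3 of 10 endothelial genes fell under G6, and 2 of 10 macrophage genes and 1 endothelial gene rose under DC101, and their part was not tested. Without arrays 86 and 87 limma called 0, with 1 at an unadjusted p below 0.05, while 31 fell without array 79 (median -1.36), so the count under G6 turns on 3 arrays. Without all 3 limma called 0, with 5 at an unadjusted p below 0.05 (median -0.41). With the RNA ratios in the fit limma called 0 under either antibody, with 0 at an unadjusted p below 0.05. The Actb ratio was 1.17 to 1.56 on DC101 arrays and 1.58 to 2.57 on untreated arrays, without overlap. DC101 and RNA ratio therefore cannot be told apart at day 60, and the test that follows uses the same arrays. The DC101 effect was larger at day 60 than at day 20 for Ryr1 (2.42, adjusted p = 0.024), Tcap (1.98, adjusted p = 0.010) and Jph2 (1.17, adjusted p = 0.049), where 8.90% of all genes had a larger and 9.29% a smaller effect. Without array 79 only Tcap was called (1.65, adjusted p = 0.028), and 14 were called without DC101 arrays 68 and 72. With the RNA ratios limma called 0, with 10 at an unadjusted p below 0.05, and the median was -1.05, against 0.73 without them. For G6 limma called 0 members in that test, with 4 at an unadjusted p below 0.05, where 0.0611% of all genes had a larger and 0.0136% a smaller effect.

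Within groups the members varied together, and fast genes more tightly than slow ones. Over 78 arrays, as deviations from group means, the median correlation was 0.947 over 120 pairs of fast genes, 0.623 over 21 pairs of slow genes and 0.590 over 112 mixed pairs. The slow genes Myh7, Tnnc1 and Tnni1 had a median of 0.788 among themselves (0.638 to 0.837), and Myh3, Myh8 and Myog one of 0.535. With adjacent arrays averaged to 39 points, Myh7 had a correlation of 0.835 with Tnnc1 and 0.0955 with Ckm. All points share their array, so these values are descriptions. A few arrays at day 20 had slow-gene means above the rest of their group, at 12.70 on G6 array 64 and 13.13 and 13.59 on DC101 arrays 68 and 72, where the other DC101 arrays had 9.26 to 10.82. These arrays were also the first or second highest of their group in the mean of the fast genes.

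The genes outside the list whose level was most like the mean of the 48 members over the 78 arrays were, by Pearson correlation, Klhl41 (0.977), Hspb6 (0.975), Pgam2 (0.975), Pdlim3 (0.974), Synpo2 (0.972), Lmod3 (0.971), Srl (0.970), Pdlim5 (0.969), Smyd1 (0.968) and Mypn (0.967).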

How the data were processed

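RNA from mouse flank was measured on 78 Affymetrix Mouse Genome 430 2.0 arrays. The authors used MAS5 and GCOS 1.3, per the submitters' processing notes. They deposited linear signal intensity for each probe set, with values between 0.15 and 186384.77 and a trimmed mean (middle 96%) of 1500 on each array. Arrays give no counting depth, and their number limits the precision. The platform annotation gave 1 symbol for 34958 of 45101 probe sets. The others had several symbols (932) or were not in it (9211).

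From these, log2(signal + 16) was computed with Python 3.11.15 and pandas 2.3.3. Probe sets with 6 or more arrays above a signal of 331.2, the 40th percentile, were kept, and the brightest probe set represented each gene. A limma (3.58.1, R 4.3.3) model of the 10 groups, with trended eBayes variances, gave 14 comparisons and 4 differences of antibody effects between days, two-sided, adjusted over 14718 genes at 0.05. On simulated data for untreated day 5 minus control (14718 genes), 82% of genes changed by 1 and 34% of those changed by 0.5 (log2) were recovered. These shares are not specific to the members. Several members with differences near 1 were not called, such as Myh4 and Atp2a1 in the comparison of G6 with untreated tissue.

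Groups came from the labels. The 48 members and the 12 other lists (154 of 164 entries matched, 147 tested) were chosen with earlier results of these data known. Acta1, Ckm, Myh4, Myh7, Tnni1, Tnni2, Atp2a1, Myod1, Myog and Myh3 are described throughout, with the 3 largest changes in each direction of a comparison, the 2 largest of each other list and the 10 genes most like the members' mean. Other members are named where a count is small or where their values drew attention. Promoters come from the RefSeq table of GRCm38.p6. Alternatives covered the pseudocount, filter, scaling, probe set rule, array weights, groups fitted, averaging of adjacent arrays, RNA ratios and arrays left out.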

Additional observations from a re-analysis of the deposited data

Results flagged for a closer look

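Single arrays were compared with the rest of their group by the gap to the nearest array over the group's range. Of 480 combinations of member and group, 71 stood apart by this measure, in 45 members, and chance alone marks about 1 in 20 groups. Array 79 of untreated tissue at day 60 was the lowest and stood apart in 38 members, among them Ckm (12.43), Acta1 (12.87), Myh4 (12.25), Tnni2 (12.36) and Atp2a1 (11.76). Array 93 of DC101 tissue at day 60 was the lowest in 9 members, including Atp2a1 (15.33) and Myog (8.17), and array 90 of that group was lowest in Myh3 (6.31). Array 24 of DC101 tissue at day 5 was the lowest in 6 members, including Myh4 (15.19), Myh7 (6.26), Atp2a1 (14.90) and Ckm (14.92). The control array with the highest running number was the highest in 5 members, including Acta1 (17.06) and Ckm (16.95), and control arrays 99 and 97 were lowest in Myh7 (7.05) and Myh8 (5.53).

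Array 64 of G6 tissue at day 20 was the highest in the slow genes Myh7 (12.78) and Tnni1 (11.29), and array 61 of that group was the lowest in Myh8 (6.90). In G6 tissue at day 5 array 12 was highest in Acta1 (17.20) and array 15 lowest in Myog (9.78). G6 array 88 at day 60 was highest in Myod1 (9.88), and untreated array 4 at day 5 in Myog (10.41).

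By a test of the difference itself, the G6 effect was smaller at day 20 than at day 5 for 7 members, including Myh8 (-2.82), Myog (-1.997) and Myod1 (-0.91). The DC101 effect was smaller at day 20 than at day 5 for 1 member, and larger at day 60 than at day 20 for 3.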

How the results depend on the processing

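Values are numbers of the 48 members called, and percentages of all genes under the alternatives are not given here. Untreated minus control at day 5 (44) and G6 minus untreated at day 5 (39) stayed at 42 to 45 and 36 to 45 under every alternative run. G6 minus DC101 at day 20 and the change of the G6 effect between days 60 and 20 stayed at 0, with 0 to 6 and 0 to 29 members at an unadjusted p below 0.05. With the RNA ratios as covariates the count was 5 for untreated minus control at day 60 (33), 13 for untreated day 20 minus day 5 (8), 0 for G6 minus untreated at days 20 (1) and 60 (3), 0 for DC101 minus untreated at day 60 (2), 0 for G6 minus DC101 at day 60 (42), 0 for both changes of the DC101 effect (1 and 3), and 5, all higher instead of lower, for untreated day 60 minus day 20 (4). In that fit the G6 minus DC101 differences at day 60 turned positive for Acta1 (0.69), Ckm (0.56), Myh4 (0.80), Tnni2 (0.67) and Atp2a1 (0.54). In that fit the 3 comparisons of antibodies at day 60 had 0 members at an unadjusted p below 0.05, and each other count of 0 given here for a result with calls had 1 to 15.

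With array weights the count was 39 for untreated day 20 minus day 5, 7 for day 60 minus day 20, 41, 5 and 20 for DC101 minus untreated at days 5 (7), 20 (0) and 60, 4 for G6 minus DC101 at day 5 (1), 41 and 37 for the change of the G6 (7) and DC101 effects between days 20 and 5, and 24 for the DC101 effect between days 60 and 20. With only the groups compared it was 29 for untreated day 20 minus day 5, 0 for G6 minus untreated at days 20 and 60, 42 for DC101 minus untreated at day 5, 6 and 21 for G6 minus DC101 at days 5 and 60, and 29 and 2 for the change of the G6 and DC101 effects between days 20 and 5.

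Without untreated arrays 51 and 52 of day 20 it was 14 for untreated minus control at day 20 (29), 20 for day 20 minus day 5, 0 for G6 minus untreated at day 20, and 15 for the change of the G6 effect. Without untreated arrays 77 and 79 of day 60 it was 1 for day 60 minus day 20, 18 for G6 and 1 for DC101 minus untreated at day 60. Alternatives chosen after seeing the data, leaving out array 79 alone, gave 2 for day 60 minus day 20, 31 for G6 and 1 for DC101 minus untreated, and 1 for the change of the DC101 effect between days 60 and 20. Leaving out G6 arrays 86 and 87, with or without array 79, gave 0 for G6 minus untreated, and without 86 and 87 G6 minus DC101 had 14. Leaving out DC101 arrays 68 and 72 gave 2 for DC101 minus untreated at day 20, 9 and 14 for the changes of the DC101 effect between days 20 and 5 and between days 60 and 20, and the planned omission of G6 arrays 13 and 14 gave 2 for G6 minus DC101 at day 5.

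Quantile normalization and scaling to the median each gave 1 for untreated day 60 minus day 20, and quantile normalization 11 for the change of the G6 effect between days 20 and 5. G6 minus DC101 at day 5 had 2 with a pseudocount of 64, with median scaling and with adjacent arrays averaged, and averaging gave 2 for day 60 minus day 20. The change of the DC101 effect between days 20 and 5 had 0 with a pseudocount of 1, no filter, median scaling or averaging, and that between days 60 and 20 had 1 with the mean over probe sets. The cause of these changes was not tested. Of single-gene values, 290 kept sign and side of the threshold, 36 lost the call and 5 reversed. The call for Tnni1 at day 5 against control was lost with the RNA ratios, that for Myh7 also with the 2 groups alone and with averaging. No paired analysis was possible because the running numbers of the arrays are not shared between groups.

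Precision is limited by 6 to 8 arrays a group, by unknown animals behind them, and by dim genes: Myh7, Tnni1, Myh8 and Myh3 were near the filter level in several groups.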
